A study of Homo sapiens with 6 samples.

Results

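The genes described here are those of cytokines, chemokines and interferons, of their receptors, and of the factors and induced genes downstream of them, in SiHa cells, a line established from squamous carcinoma of the cervix with integrated human papillomavirus DNA. They were taken by symbol from a pair of lists that the authors deposited under the names of high and low expression genes, using the name stems IL, IFN, CXCL, CXCR, CCL, CCR, CSF, TNF, IFI, ISG, OAS, IRF, STAT, NFKB and REL. The rule found 133 genes among 8942 symbols that stood on 1 of the lists, 29 of them high and 104 low. Migrated cells, which had crossed a transwell membrane within 10 hours of seeding, and non-migrated cells, which had not, were sequenced in 3 libraries each, and both fractions were of the same line, grown in serum-containing medium and not treated otherwise. The 3 migrated libraries held 23166447 to 25662866 assigned fragments and the 3 non-migrated libraries 18226280 to 33466924.

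The lists give a symbol, a position and a strand for each gene and no expression value. The per-library table holds 26006 loci under assembly identifiers that the files do not pair with gene names. No level in any library and no difference between migrated and non-migrated cells can therefore be given for a named gene. How the lists were drawn, and from which libraries, is not stated in what was used here. A place on a list is treated below as a description of level in this line, without error and without a test. In bulk RNA, fewer cells that express a gene and less RNA per cell cannot be told apart. The keratin genes KRT7, KRT8, KRT17 and KRT18 of epithelium were on the high list, with KRT5 on the low list and the other 6 of 11 epithelial markers on neither. None of 15 leukocyte markers was on the high list, and 8 of them, including PTPRC, the common leukocyte antigen, were on the low list. The endothelial gene KDR and the fibroblast gene COL1A2 were also low, and the other 3 of 4 endothelial and 4 of 5 fibroblast markers were on neither.

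Cytokines are secreted or membrane-bound proteins that act on receptors of neighbouring or distant cells. Interferon and many interleukin receptors signal through JAK kinases to STAT transcription factors, and interferons induce antiviral genes in this way. TNF and IL-1 family receptors signal through adaptor proteins to NF-kappaB, which is held in the cytoplasm by inhibitors such as NFKBIA. Chemokines act on G protein-coupled receptors and direct cell movement, mostly of leukocytes. Keratinocytes both make and respond to many of these proteins.

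Ligands, receptors and downstream genes were placed differently on the lists. Of 74 listed ligand genes 0 were high and 74 low. Of 39 listed receptor genes 12 were high and 27 low. Of 20 listed downstream genes 17 were high and 3 low. Over all 133 genes 21.8% were on the high list, against 50.6% of the 8942 listed symbols and 54.1% of the 8268 listed protein coding genes. With tandem clusters of a family counted once, the share was 33.3% of 78. Among listed genes the share was below the background for ligands (0%) and receptors (30.8%) and above it for downstream genes (85.0%). RefSeq holds 279 protein coding genes that match the stems, read-through genes left out. Of these 279 genes 10.4% were on the high list, 37.3% on the low list and the remaining 146 on neither, against 22.5% and 18.5% of all 19791 RefSeq protein coding genes. Of those 19791 genes 41.1% were on either list. On this base, 0 of 120 ligand genes were high and 61.7% low, and 13.2% of 91 receptor genes were high and 29.7% low. Of 68 downstream genes 17 were high, 3 low and 48 on neither. Their 25% on the high list was near the 22.5% of all RefSeq protein coding genes, and their 4.41% on the low list stood against 18.5%.

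**Figure D1:**
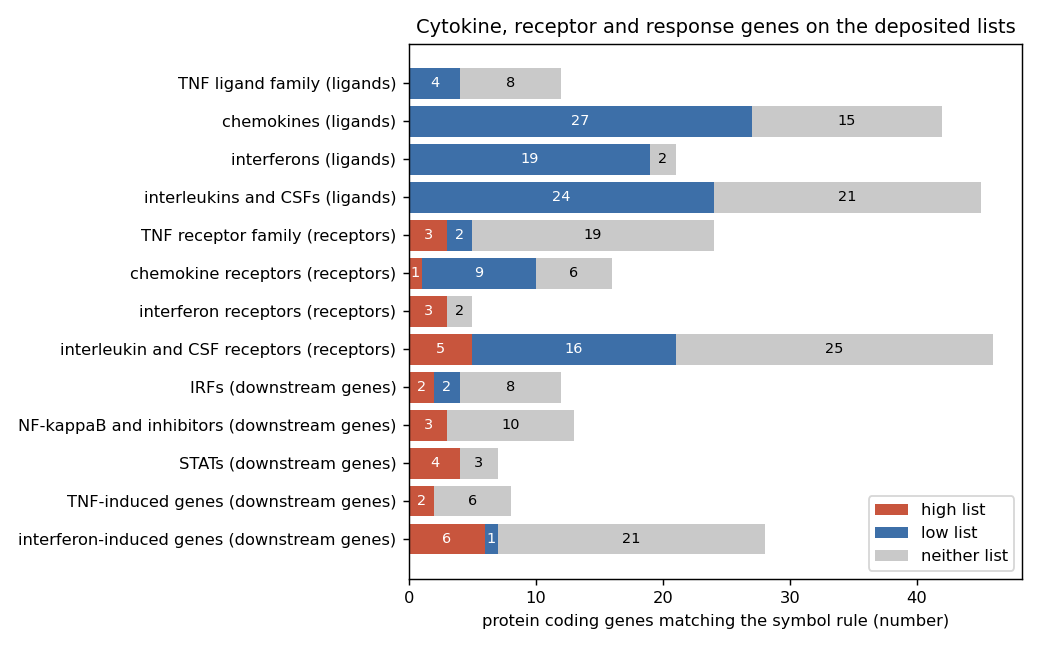
The bars give the number of RefSeq protein coding genes that match the name stems, by family, with genes on the high list in red, on the low list in blue and on neither in grey. The 4 ligand families have no red part, whereas STAT, NF-kappaB and interferon receptor genes have no blue part.

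Promoter sequences from RefSeq (GRCh38.p14) were matched to 103 of the 133 genes. With 77.4% matched, fewer than 80% as a summary would need, no summary over the promoters was made, and single promoters are shown as descriptions. Each holds the 250 bases before the transcription start, on the strand of the gene. The first set shows a pair of receptor subunits from the high list and a pair of type I interferons from the low list, with CG dinucleotides in capitals, because the pairs differ to the eye. IL6ST lies at chr5:55994964-55995213 (minus strand) and holds 31 CG dinucleotides, and IFNGR2 at chr21:33403163-33403412 (plus strand) holds 37. IFNB1 at chr9:21077943-21078192 (minus strand) holds 0 and IFNA2 at chr9:21385399-21385648 (minus strand) holds 1. Across all 35116 promoters of the table the median was 11. In the second set below, the high-list genes NFKBIA and OAS3 hold 15 each, high-list IFITM3 holds 4 and low-list CXCL10 holds 3. The pairs differ in role as well as in list, and they do not describe the lists as wholes.
IL6ST: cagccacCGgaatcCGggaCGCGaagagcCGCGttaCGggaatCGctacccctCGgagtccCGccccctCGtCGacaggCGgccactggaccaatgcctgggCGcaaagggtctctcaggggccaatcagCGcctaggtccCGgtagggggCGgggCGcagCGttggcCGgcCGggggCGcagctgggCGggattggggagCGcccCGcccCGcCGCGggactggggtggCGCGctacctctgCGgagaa
IFNGR2: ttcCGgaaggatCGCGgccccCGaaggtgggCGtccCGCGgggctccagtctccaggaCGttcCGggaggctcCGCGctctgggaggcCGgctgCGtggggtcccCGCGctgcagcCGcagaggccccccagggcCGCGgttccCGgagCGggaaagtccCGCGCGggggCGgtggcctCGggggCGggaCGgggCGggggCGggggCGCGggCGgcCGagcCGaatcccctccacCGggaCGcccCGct
IFNB1: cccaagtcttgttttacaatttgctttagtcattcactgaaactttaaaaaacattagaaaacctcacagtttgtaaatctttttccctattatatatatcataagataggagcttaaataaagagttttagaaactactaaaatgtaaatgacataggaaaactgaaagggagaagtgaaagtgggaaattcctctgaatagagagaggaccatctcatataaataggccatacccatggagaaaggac
IFNA2: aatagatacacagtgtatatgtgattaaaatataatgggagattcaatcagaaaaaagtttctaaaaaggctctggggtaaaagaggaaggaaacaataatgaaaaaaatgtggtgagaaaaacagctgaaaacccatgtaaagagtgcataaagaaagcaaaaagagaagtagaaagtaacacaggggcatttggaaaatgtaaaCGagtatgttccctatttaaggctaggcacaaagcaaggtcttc

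The second set shows promoters of genes that respond to NF-kappaB or interferon, 3 from the high list and 1 from the low list. Capitals mark the NF-kappaB motif and the interferon-stimulated response element, searched on either strand as GAAA, any 2 bases and GAAA. NFKBIA (chr14:35404750-35404999, minus strand) held an NF-kappaB match that begins 81 bases before the start. OAS3 (chr12:112938224-112938473, plus strand) held response element matches from 143 and 12 bases before the start, and overlapping NF-kappaB matches from 130 and 129 bases before it. IFITM3 (chr11:320861-321110, minus strand) held response element matches from 52 and 35 bases before the start and an NF-kappaB match at the far end of the window. CXCL10, on the low list (chr4:76023498-76023747, minus strand), held a response element match from 221 and NF-kappaB matches from 177 and 122 bases before the start. Of all 35116 promoters 5.21% hold the NF-kappaB motif and 3.02% the response element. Matches of both kinds thus stood before genes of either list, and a match is a run of letters, not a site shown to be bound.
NFKBIA: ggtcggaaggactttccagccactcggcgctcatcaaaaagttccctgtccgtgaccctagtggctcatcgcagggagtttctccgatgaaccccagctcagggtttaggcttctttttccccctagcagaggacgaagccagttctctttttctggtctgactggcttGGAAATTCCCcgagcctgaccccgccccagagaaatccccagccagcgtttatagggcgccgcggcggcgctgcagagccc
OAS3: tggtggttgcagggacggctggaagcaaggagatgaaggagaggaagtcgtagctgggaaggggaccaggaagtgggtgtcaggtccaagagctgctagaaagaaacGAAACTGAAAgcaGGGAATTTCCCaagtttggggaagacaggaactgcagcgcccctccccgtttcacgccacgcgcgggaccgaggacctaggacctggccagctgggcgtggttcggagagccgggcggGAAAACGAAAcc
IFITM3: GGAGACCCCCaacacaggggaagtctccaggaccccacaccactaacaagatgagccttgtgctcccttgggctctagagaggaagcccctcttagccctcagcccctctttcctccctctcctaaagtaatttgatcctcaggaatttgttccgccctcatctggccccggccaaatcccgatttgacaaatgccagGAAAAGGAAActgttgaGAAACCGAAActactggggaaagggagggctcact
CXCL10: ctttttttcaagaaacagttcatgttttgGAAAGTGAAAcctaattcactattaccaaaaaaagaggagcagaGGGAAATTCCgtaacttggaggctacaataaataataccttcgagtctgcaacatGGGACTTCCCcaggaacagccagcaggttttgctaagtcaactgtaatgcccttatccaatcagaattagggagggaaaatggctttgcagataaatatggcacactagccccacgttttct

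Among ligands, the interferons were listed most completely. RefSeq holds 21 interferon genes, of which 19 were on the low list and IFNA1 and IFNE on neither. The 19 are 90.5%, against 18.5% of all RefSeq protein coding genes on the low list. The low genes were 12 of 13 IFNA genes, IFNB1, IFNW1 and IFNK of type I, IFNG of type II, and IL29, IL28A and IL28B, the older names of the type III interferons IFNL1, IFNL2 and IFNL3. The coding sequences of the IFNA genes resemble each other, with a median identity of 89.5% over 78 pairs and a range of 86.2% to 99.3%. The highest value is that of IFNA1, on neither list, and IFNA13, on the low list. IFNL2 and IFNL3 are 98.2% identical. The sources used here do not say how fragments of such copies were shared in counting, so the place of a single gene among them is uncertain.

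Of 42 chemokine genes 27 were on the low list and 15 on neither. The 27 are 64.3%, against 18.5% of all RefSeq protein coding genes on the low list. The low CXCL genes were CXCL5 and CXCL6, which attract neutrophils through CXCR2, the interferon-induced CXCL9, CXCL10 and CXCL11, which act on CXCR3, and CXCL12, CXCL13 and CXCL17. CXCL1, CXCL2, CXCL3, CXCL8, CXCL14 and CXCL16 were on neither list. Of 28 CCL genes 19 were low, among them the inflammatory chemokines CCL3 and CCL4, CCL19 and CCL21, which act on CCR7, and CCL27, which is made by keratinocytes. CCL3L1 and CCL3L3, copies of CCL3, and CCL4L1 and CCL4L2, copies of CCL4, are among the 19. The coding sequence of CCL3L1 is 95.7% identical to that of CCL3. CCL2, CCL5 and CCL20 were among the 9 on neither.

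Of 45 interleukin and colony-stimulating factor genes 24 were low and 21 on neither. The 24 are 53.3%, against 18.5% of all RefSeq protein coding genes on the low list. The low genes included the T-cell growth factors IL2 and IL21, the T helper products IL4, IL5, IL13, IL17A, IL17F and IL22, and CSF2, which encodes GM-CSF. They also included the regulatory cytokine IL10 and the receptor antagonists IL1RN and IL36RN. The epithelial cytokines IL1A, IL1B, IL6, IL18, IL33 and IL36G were on neither list. Of the TNF ligands, TNF, TNFSF11 (RANKL), TNFSF15 and TNFSF18 were low and the other 8 of 12 on neither, including TNFSF10 (TRAIL) and TNFSF12 (TWEAK). The low TNF ligands are 33.3% of the 12, against the same 18.5%.

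Ligands outside the symbol rule did occur on the high list. A further list of 119 pathway genes outside the rule held 19 ligands. Of these, CLCF1, a cytokine of the IL-6 family, CD70, a TNF family ligand, and the secreted factors MIF and CKLF were on the high list. OSM, FASLG, CD40LG, LTB, CX3CL1, PF4 and PPBP were on the low list, and the other 8 were on neither.

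The 12 high-list receptor genes encode 3 interferon, 5 interleukin, 3 TNF family and 1 chemokine receptor proteins. Of 5 interferon receptor genes 3 were high and 0 low, and IFNAR2 and IFNLR1 were on neither. The 3 are 60% of a family of 5, against 22.5% of all RefSeq protein coding genes on the high list. IFNAR1 (hg19 chr21:34696734-34732168) is a subunit of the type I receptor. IFNGR1 (chr6:137518621-137540586) and IFNGR2 (chr21:34775202-34851655) together form the type II receptor. IL6ST (chr5:55230923-55290772) encodes gp130, the shared signalling subunit of the IL-6 family, and IL17RA (chr22:17565849-17596583) a subunit shared by receptors of the IL-17 family. IL13RA1 (chrX:117861535-117928502) forms a receptor for IL-4 and IL-13 with IL4R, which was on neither list. IL20RB (chr3:136676707-136729927) is a subunit for IL-19, IL-20 and IL-24, which act on keratinocytes. IL7R (chr5:35852797-35879705) encodes the alpha chain of the IL-7 receptor, best known from lymphocytes.

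Of 24 genes of the TNF receptor family, 3 were high, 2 low and 19 on neither. Their shares, 12.5% high and 8.33% low, were both below the 22.5% and 18.5% of all RefSeq protein coding genes. TNFRSF1A (chr12:6437923-6451280) is the main TNF receptor of non-immune cells, TNFRSF10B (chr8:22877646-22926692) a death receptor for TRAIL, and TNFRSF12A (chr16:3070313-3072384) the receptor for TWEAK. The low genes were TNFRSF4 (OX40) and TNFRSF13B (TACI), receptors of T and B cells. 

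Of 16 chemokine receptor genes 1 was high, 9 low and 6 on neither. Their shares, 6.25% high and 56.2% low, stood against 22.5% and 18.5% of all RefSeq protein coding genes. The low genes included CXCR1, CXCR2, CXCR3, CXCR4, CCR1, CCR2, CCR8 and CCR9. CXCR4, the receptor of CXCL12, and CXCL12 itself were both low. The high gene was CXCR5 (chr11:118754475-118768508, plus strand), a receptor of B cells that follow CXCL13. Its listed position overlaps BCL9L, a high-list gene on the minus strand, over 3925 bases or 28.0% of the CXCR5 span, and the sources used here name no strand setting for the counting. How many of the fragments assigned to CXCR5 come from BCL9L was not tested.

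Of 46 interleukin and colony-stimulating factor receptor genes 5 were high, 16 low and 25 on neither. Their shares, 10.9% high and 34.8% low, stood against 22.5% and 18.5% of all RefSeq protein coding genes. The low genes included the IL-2 receptor chains IL2RA and IL2RB, the common beta chain CSF2RB with its partner IL5RA, and the myeloid receptors CSF1R and CSF3R. They also included IL10RA, IL12RB1 and IL23R, and the IL-33 receptor IL1RL1. IL1RAPL1, a synaptic protein of the IL-1 receptor family, matched by its name. IL3RA, CSF2RA and IL9R were listed low at positions on chromosome Y. They lie in the regions that X and Y share, and their X positions were on neither list. AKAP17A, CD99, PLCXD1 and SLC25A6, the 4 symbols on both lists, were high at an X and low at a Y position, so a low place of a Y copy does not describe the X copy.

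Ligands and receptors were paired by textbook knowledge into 33 axes. Since 0 of the 74 listed ligands were high, a listed ligand in an axis could only be low. The axes therefore differ only in their receptors and in which ligands were listed. In 10 axes a low-list ligand met a high-list receptor subunit. These were the type I and type II interferons, TNF, IL-17A with IL-17F, IL-25, IL-4 with IL-13, the IL-6 family through IL27, IL-31, the IL-19 family and CXCL13. The IL-31 receptor was split, with its subunit IL31RA low and OSMR, which lies outside the symbol rule, high. In 12 axes low ligands met low receptors with no high subunit, including IL-5 with IL5RA and CSF2RB, and CXCL9, CXCL10 and CXCL11 with CXCR3. Without the 3 receptors listed at Y positions these axes number 11, since IL9R was the low receptor of IL-9. In the IL-1 axis, also counted here, the low genes were the antagonist IL1RN and the receptor IL1R2. IL1A, IL1B, IL1R1 and IL1RAP of that axis were on neither list. In 4 axes, among them the type III interferons, the receptors were on neither list. In 3 axes, IL-7, TRAIL and TWEAK, the receptor was high and the ligand on neither list. In the last 4 the receptor was low and the ligand on neither. The high-list ligands outside the symbol rule, CLCF1, CD70, MIF and CKLF, were not paired, nor were the low-list OSM and LTB, whereas the receptor OSMR was. CLCF1 is of the IL-6 family, so that axis leaves out a ligand on the high list.

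**Figure D2:**
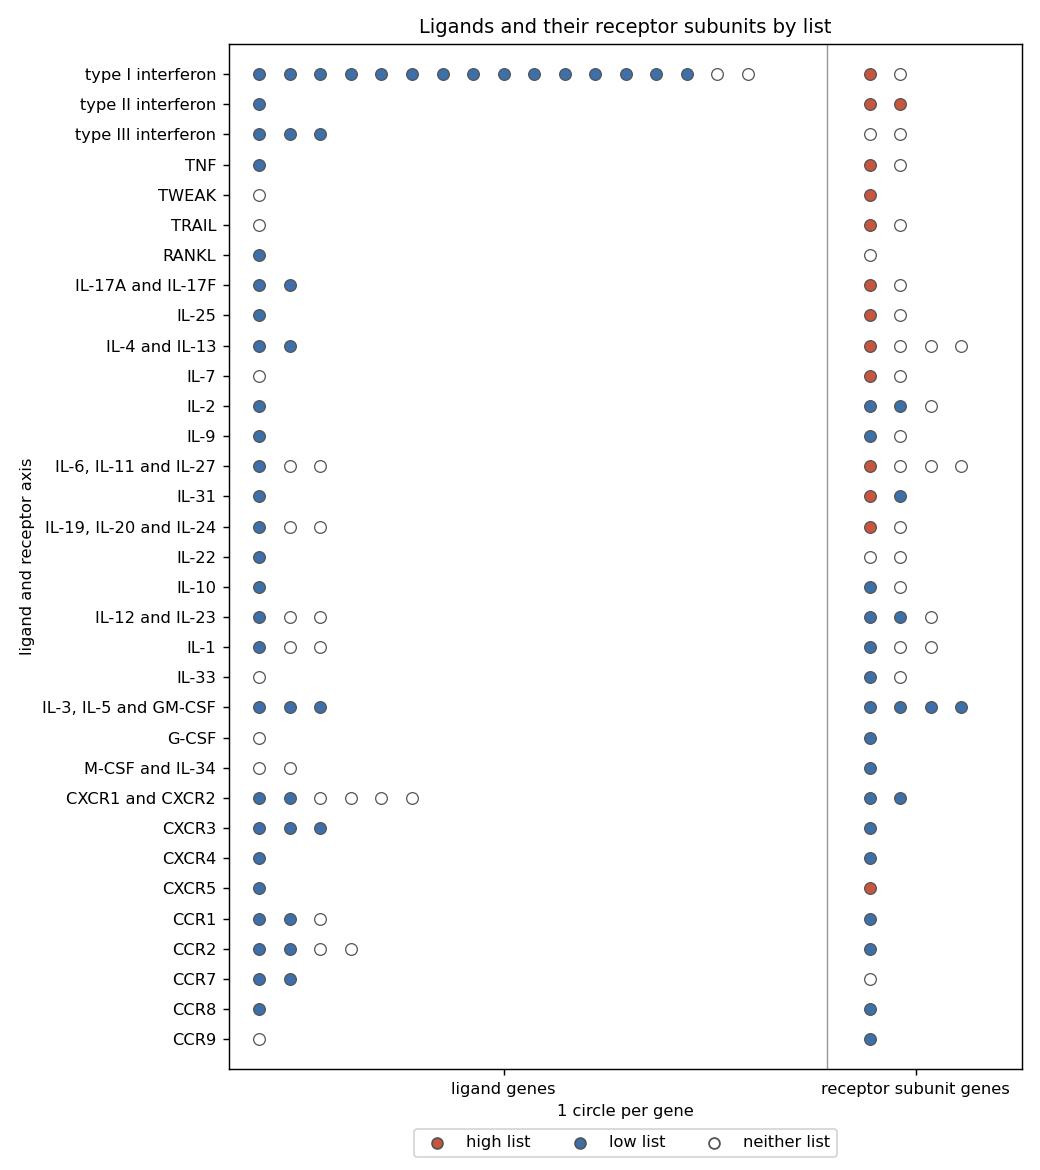
Each circle is a gene, with ligands to the left and receptor subunits to the right of the line for each of 33 axes, filled red for the high list, blue for the low list and open for neither. A red receptor circle stands in 13 axes, and high-list ligands outside the symbol rule are not drawn.

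Downstream genes were high in 17 of the 20 listed cases, and 48 of all 68 were on neither list. STAT3 (chr17:40465342-40540449) acts after IL-6 family receptors, STAT5B (chr17:40351186-40428725) after many cytokine receptors, and STAT6 (chr12:57489191-57525922) after IL-4 and IL-13. These genes were high, and 0 of the STAT genes were low. STAT6 overlaps LRP1, a high-list gene on the other strand, over 9.93% of its span. The NF-kappaB subunits NFKB1 (chr4:103422486-103538459) and RELA (chr11:65421067-65430565) and their inhibitor NFKBIA (chr14:35870717-35873952) were high. NFKB2, REL and RELB were on neither. Of 13 genes grouped by their stems as NF-kappaB and inhibitors 23.1% were high, near the 22.5% of all RefSeq protein coding genes. On the low list stood 0 of the 13, against 18.5%.

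Among interferon regulatory factors, IRF3 (chr19:50162829-50169132), which is activated by sensors of viral nucleic acid, was high. IRF4 and IRF8, known from lymphoid and myeloid cells, were low, and the other 6 of 9 were on neither. Of 28 genes grouped by their stems as interferon-induced 6 were high, 1 low and 21 on neither. Their 21.4% on the high list was near the 22.5% of all RefSeq protein coding genes, and their 3.57% on the low list stood against 18.5%. Among them, the DNA sensor IFI16, the membrane antiviral proteins IFITM2 and IFITM3, the oligoadenylate synthetase OAS3 and the lysosomal reductase IFI30 were high. IFIT1, IFIT2, IFIT3, IFIT5, IFI44 and IFI44L, which are among the genes most used as interferon markers, were on neither list, as were OAS1, OAS2 and OASL. IFIT1B was low, and all of its span lies within LIPA, a high-list gene on the other strand. TNFAIP1 and TNFAIP2, first found as TNF-induced genes, were high, and TNFAIP3 was among the other 6 of 8 on neither. ISG20L2, a nucleolar exonuclease, and IRF2BP2 (chr1:234740015-234745271), a co-repressor, were high and match the rule by spelling.

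Of 71 signalling and response genes outside the rule 22 were high, 0 low and 49 on neither. For all RefSeq protein coding genes the shares were 22.5% high and 18.5% low. The high genes included the kinases JAK1 and TYK2 of interferon receptors, the TNF receptor adaptors TRAF2 and TRAF3, the kinases TBK1 and MAP3K7, the adaptor MAVS and the antiviral proteins EIF2AK2, ADAR and BST2. JAK2, IKBKB, MYD88 and MX1 were among those on neither. Of 29 further receptors LIFR, OSMR and LTBR were high and 6 low, including the endosomal receptors TLR7 and TLR8. Over the whole pathway list of 119 genes 29 were high, 13 low and 77 on neither. The 29 are 24.4% of the 119, near the 22.5% of all RefSeq protein coding genes. They are 69.0% of the 42 listed genes, against 54.1% of listed protein coding genes and 50.6% of all listed symbols.

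The listed positions differed in length between roles. The median span was 26.9 kb over the 29 high-list genes and 5.0 kb over the 104 low-list genes, against 33.2 kb and 10.9 kb for all high-list and all low-list symbols. Low-list ligands were shortest, with a median of 2.89 kb and a range of 0.700 kb (IFNA5) to 100 kb (CXCL13). High-list receptors had a median of 33.1 kb and low-list receptors of 26.8 kb. High-list downstream genes ran from 1.67 kb at IFITM3 to 116 kb at NFKB1, with a median of 11.3 kb.

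**Figure D3:**
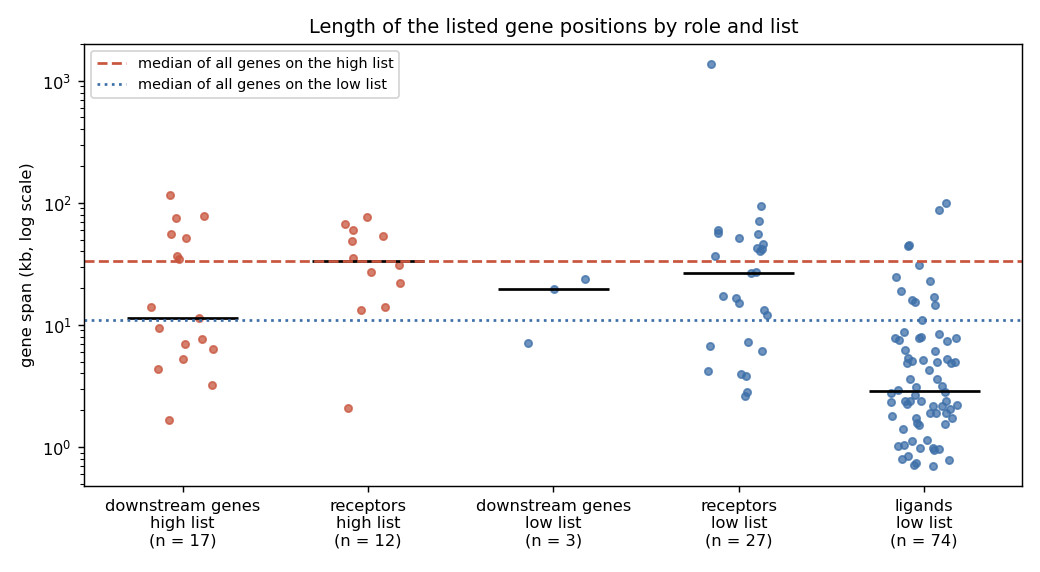
Each point is the length of a listed gene position in kb on a log scale, by role and list, with a black line at the median and dashed and dotted lines at the medians of all genes on the high list (33.2 kb) and the low list (10.9 kb). Low-list ligands lie lowest, at a median of 2.89 kb.

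Genes of the same family often lay side by side. With neighbours at most 1 Mb apart, 85 of the 133 genes fell into 25 clusters, 9 of them high-list and 76 low-list genes. Of the clusters, 3 held high-list genes alone, 19 low-list genes alone and 3 both. As 78.2% of the 133 genes were low, many low-list clusters follow from that share. Clusters were not counted over all listed genes, so whether neighbours share a list more often here cannot be said. Some clusters join genes of different families, such as IL17B and CSF1R, 674 kb apart. The largest, of 14 genes, was the type I interferon cluster from IFNB1 to IFNA8 (hg19 chr9:21077104-21410184, 333 kb). The CCL genes of chromosome 17 formed clusters of 11, from CCL16 to CCL4L2 (chr17:34303535-34641846), and of 4, from CCL11 to CCL1 (chr17:32612761-32690230). IL3, CSF2, IL5, IL13 and IL4 lay within 622 kb (chr5:131396222-132018368), and IL36A, IL36B, IL36RN, IL1F10 and IL1RN within 129 kb (chr2:113763038-113891593). IL5 overlaps the high-list DNA repair gene RAD50 on the other strand over 5.33% of its span.

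Low-list genes also formed smaller clusters. CCR9, CCR1 and CCR2 lay on chromosome 3 and CXCR2 with CXCR1 on chromosome 2 (chr2:218990012-219031725). IFNG, IL26 and IL22 (chr12:68548548-68647387), the 3 type III interferons (chr19:39734246-39789312), CXCL9, CXCL10 and CXCL11 (chr4:76922428-76962568) and CCL27, CCL19 and CCL21 (chr9:34661893-34710121) formed clusters of 3. CXCL10 and CXCL11 lie wholly within ART3, a low-list gene on the other strand. Pairs were formed by IL17A and IL17F (chr6:52051185-52109335), IL2 and IL21 (chr4:123372625-123542224), CXCL6 and CXCL5 (chr4:74702214-74864496), and IL10 and IL19 (chr1:206940947-207016324). Further pairs were IL1R2 and IL1RL1 (chr2:102608306-102968497), CSF2RB and IL2RB (chr22:37309670-37571094), IL17B and CSF1R (chr5:148753830-149492935), and CSF2RA and IL3RA at their Y positions (chrY:1337693-1451578).

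The high-list clusters were IFITM2 with IFITM3 (chr11:307631-321340), STAT5B with STAT3 (chr17:40351186-40540449) and IFNAR1 with IFNGR2 (chr21:34696734-34851655). In the mixed clusters neighbours stood on opposite lists. IL6ST, high, lay 12.2 kb from IL31RA, low (chr5:55147207-55290772), and both encode receptor subunits of the gp130 type on opposite strands. IFI30, high, lay 86.9 kb from IL12RB1, low (chr19:18170371-18288927). CXCR5, high, lay 882 kb from IL10RA, low (chr11:117857063-118768508).

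**Figure D4:**
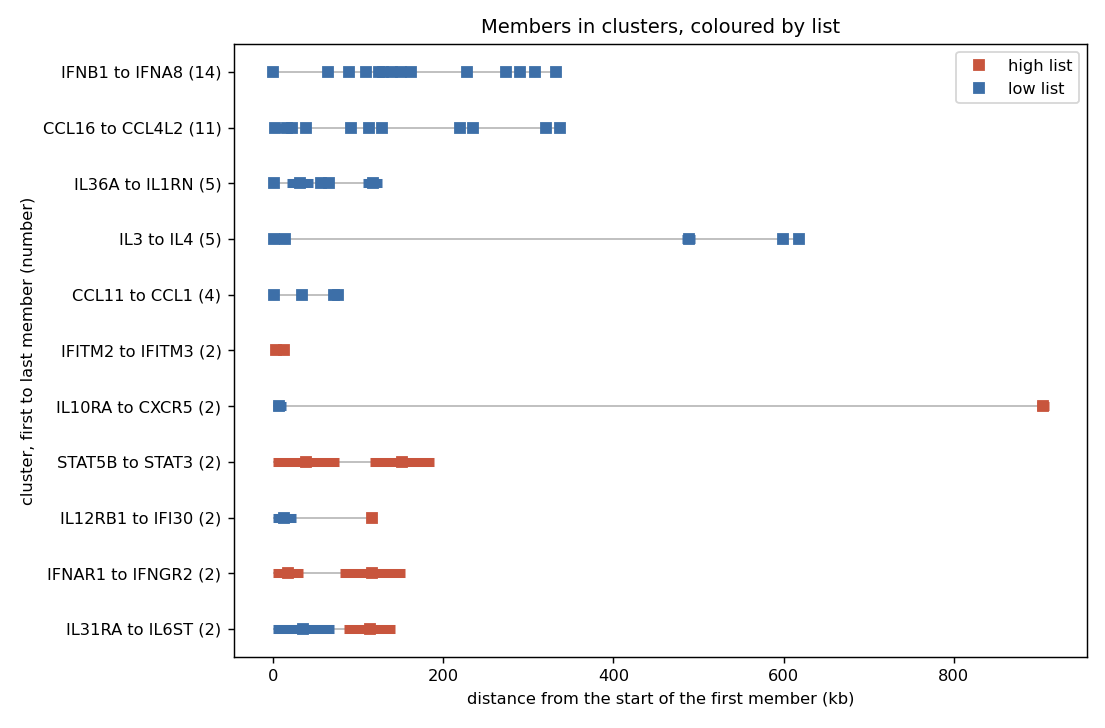
The 5 clusters with most members, followed by the 6 that hold a high-list gene, are drawn along the distance in kb from the start of the first member, with genes of the high list in red and of the low list in blue. The interferon and CCL clusters are blue throughout, and IL6ST and IL31RA stand side by side in different colours.

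Features of the transcripts of low-list ligands were read from GENCODE release 29. AU-rich elements in the 3' untranslated region shorten the life of many cytokine mRNAs. The nonamer TTATTTATT, searched on the sense strand, was found in 17 of 72 low-list ligands with a transcript, or 23.6%. It was found in 7.57% of 4439 other high-list protein coding genes and in 4.92% of 3682 other low-list ones. Among the remaining members it was found in 1 of 12 high-list and 1 of 27 low-list receptors, and in 1 of 17 high-list and 0 of 3 low-list downstream genes. The median untranslated region was of 447 bases in these ligands and 454 in the other low-list genes. Whether length or base composition bears on the share was not tested. The 46 ligand genes on neither list were not searched, so the share cannot be called particular to ligands of the low list. TNF held 5 copies, IFNW1 4, CSF2 and IL12B 3 each, and IL3, IL27 and IFNA21 2 each, and 9 of the 17 genes were among the 15 listed type I interferons, which resemble each other in sequence. The windows below, each of 30 bases within the untranslated region, show the copies in capitals in 5 low-list ligands, where copies may overlap.
TNF: tgaTTATTTATTATTTATTTATTATTTATT
CSF2: ttttaaaatatTTATTTATTTATTTATTta
IL3: tatgtatgtatTTATTTATTTATTgcctgg
IFNB1: atgagttatttTTATTTATTtaaattttat
IFNA2: tttttaaaataTTATTTATTtaactattta

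Low-list ligands were compact in their exons too. They had a median of 4 exons and 483 coding bases, against 5 exons and 1050 coding bases in the other low-list genes. A single exon was found in 14 of the 72, all of them type I interferons, and in 14.8% of the other low-list genes. High-list receptors had a median of 8.5 exons and 1346 coding bases, and low-list receptors of 9 exons and 1248 coding bases. A single exon was found in 0 of the 29 high-list genes, near the 0.991% of the other high-list genes.

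**Figure D5:**
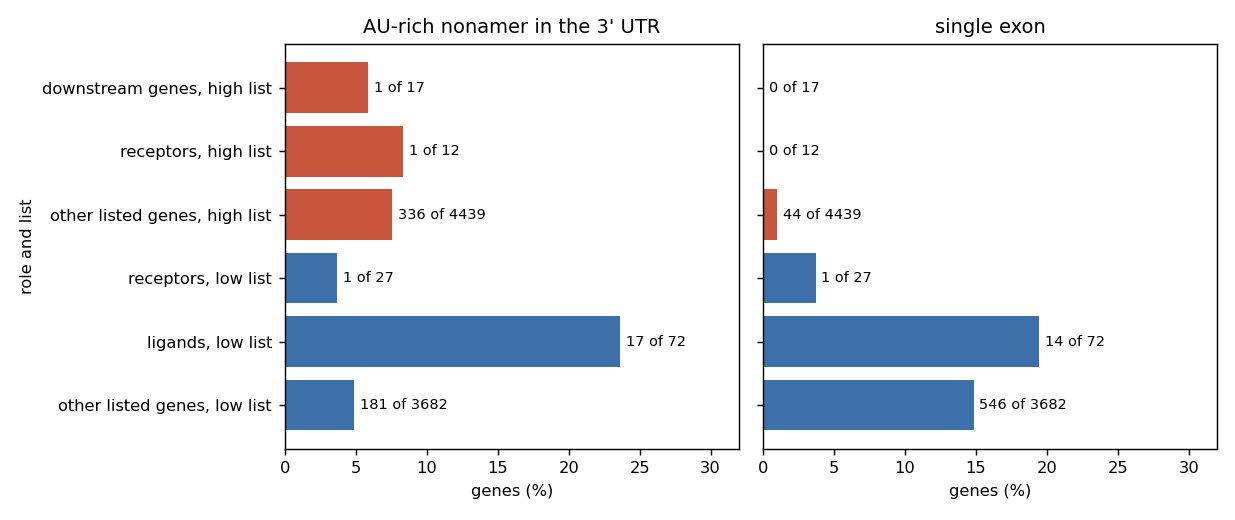
The bars give the percentage of genes whose 3' untranslated region holds TTATTTATT (left) and whose transcript has a single exon (right), by role and list, with red for the high list, blue for the low list and the counts beside the bars. Among the groups drawn, the nonamer is most frequent in low-list ligands, at 17 of 72, and ligands on neither list are not drawn.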

How the data were processed

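Per the labels' protocols, Trizol-extracted and DNase-treated RNA of migrated and non-migrated SiHa cells was sequenced from TruSeq libraries. The tools named in the submitters' processing notes are TopHat2, Cuffdiff, Cufflinks 2.2.1 and CASAVA 1.8.2, with the build hg19. The deposited lists hold 4531 high and 4436 low rows with positions in hg19 and no values. The deposited per-library table gives Cuffdiff's estimated counts, fragments assigned to a locus before scaling, per the file headers, which were summed for depth alone.

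A symbol on 1 list was counted once, and the 4 symbols on both lists were left out. Symbols were matched to RefSeq (GRCh38.p14) by current or older name, for 8735 of 8942 symbols and all 133 members, and its coordinates were used for promoters only. The transcript with the longest coding sequence was taken from GENCODE 29 for 131 members. Coding sequences were aligned globally with Biopython 1.88 (match 1, mismatch -1, gap opening -5, extension -0.5). Motif, cluster and overlap functions were tested on simulated data. The members, lists and pairs were chosen with earlier results of these data known, and the sequences shown were picked after their values were seen. High-list genes are named by role, and low-list genes by family, except that results for 2 genes are not reported here. No test was run, since no value belongs to a library. The alternatives tried are listed with their values in the closing section.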

Additional observations from a re-analysis of the deposited data

How the results depend on the processing

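The share of listed genes on the high list was 21.8% and ranged from 20.8% to 33.3% over 7 alternatives, the highest being 33.3% when tandem clusters of a family were counted once, since most clustered genes are low-list ligands. Ligands were at 0% in the 6 alternatives run on them. This could not have differed, since each only left out, merged or recounted the same low-list genes. Receptors ranged from 28.9% to 35.5% over 7 alternatives and downstream genes from 83.3% to 88.2% over 6. These alternatives left out genes that match by spelling, older symbols or genes not protein coding. Others counted each row, or counted tandem clusters of a family once, which gave the 35.5% of receptors. Those chosen after seeing the data left out positions on chromosome Y or genes overlapping another listed gene. Clusters held 70 genes with neighbours at most 100 kb apart and 86 with at most 2 Mb, against 85 at 1 Mb. Leaving out the positions on chromosome Y gave 11 axes with low ligands and low receptors, against 12. All 133 genes are protein coding and have 1 row each, so the alternatives on those points held the same genes. The median span over all 133 genes, 6909 bases, had only such an alternative. The pathway list's 69.0% had 1 alternative, current symbols only. It could not change either, since the older symbols there, DDX58, TMEM173 and MB21D1, were on neither list. No paired analysis was possible because the lists hold no values per library, and for the same reason no replicate could be left out. What depth limits cannot be given for a single gene.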
